A study of Mus musculus with 9 samples.

Results

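Messenger RNA of 46 genes that encode lysosomal hydrolases, their membrane partners, the vacuolar proton pump and the transcription factors that act on them was followed across 9 RNA sequencing libraries of DC2.4, a mouse dendritic cell line. The genes were chosen by symbol for their known roles, with earlier results of these data known. All 46 were found among the 21959 genes of the deposited table. They comprise 8 proteases (7 cathepsins and Tpp1), 9 glycan-degrading enzymes, 7 lipid enzymes and lipid transfer proteins, 13 proton pump genes (6 of the membrane sector and its accessory protein, 7 of the cytosolic sector), 6 membrane proteins and 3 transcription factors. The libraries fall into 3 groups of 3, labelled PBSDC, ZJDC and OMVSSDC, and the series describes treatment of DC2.4 with engineered extracellular vesicles. The meaning of ZJ and OMVSS, the assignment of vesicles to groups, the dose and the time are not given in the labels. PBSDC was taken as the reference, since PBS is the usual short form of phosphate-buffered saline. No label says that the 3 libraries of any group come from separate cultures, so p-values measure the spread between these libraries, which may be technical.

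Lysosomes break down proteins, glycans and lipids with hydrolases that work at acidic pH. The acid is supplied by the vacuolar proton pump, in which a cytosolic sector (V1) splits ATP and turns a ring in a membrane sector (V0). In dendritic cells the same proteases cut antigens into peptides for presentation on MHC molecules, and the degree of acidification influences how far an antigen is degraded. Transcription factors of the MiT/TFE family (TFEB, TFE3 and MITF) bind E-box sequences in front of many lysosomal genes, a set known as the CLEAR network, and their activity is controlled largely by moving the protein between the cytosol and the nucleus.

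Libraries held 12784931 to 18388959 counts, and 11568 genes with enough counts were tested. Levels below are CPM, counts per 1000000 counts of the TMM-scaled library, and the values of a group are given in the order of replicates 1, 2 and 3. OMVSSDC replicate 3 stood apart from its group. Between its replicates 1 and 2 the counts gave a chi-square per degree of freedom of 1.87. Within PBSDC the values were 2.76 to 3.83. Within ZJDC they were 2.51 for replicates 1 and 2, and 8.59 and 4.20 for replicate 3 with these. OMVSSDC replicates 1 and 2 gave 51.9 to 89.7 with the ZJDC libraries, lowest with ZJDC replicate 3. OMVSSDC replicate 3 gave 59.3 and 61.8 with replicates 1 and 2 of its group and 7.43 to 10.2 with the libraries of ZJDC. Results for OMVSSDC that changed most with this library are therefore also given without it or with it alone. A fit with it alone takes its spread from the other groups, so its p-values describe that library and not the group. Of 14 myeloid and dendritic identity genes, Ptprc (775 ± 13.5 CPM in PBSDC; SD, n = 3), Csf1r (1131 ± 39.3), Itgam (336 ± 8.08), Spi1 (422 ± 5.73) and Cd74 (410.3 ± 10.8) were clearly expressed. Itgax, which encodes CD11c, was low (2.04 ± 0.333), and Flt3 and H2-Ab1 lay near 0. Summed levels of 20 heart and brain markers reached 89.1 to 93.9 CPM in PBSDC and 52.0 to 62.8 CPM in ZJDC, and in OMVSSDC 29.7, 29.8 and 50.9 CPM. Those of 12 epithelial, lymphoid and fibroblast markers ranged from 3.61 to 22.1 CPM. These sums move with the groups and with OMVSSDC replicate 3, and their part in the results was not tested.

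Most lysosomal enzyme genes were higher in OMVSSDC than in PBSDC, while the proton pump genes moved in mixed directions. Of the 46 genes, 45 were tested, and 27 rose and 5 fell at an adjusted p under 0.05 (edgeR quasi-likelihood test, Benjamini-Hochberg over all tested genes). Among all tested genes 63.6% passed in that comparison, 33.4% higher and 30.2% lower. The share of lysosomal genes that passed was thus close to the background, and the split between directions was not. The median log2 fold change was 0.40 over the 45 genes and 0.05 over all tested genes. Over 2-fold, 9 were higher (12.9% of all tested genes) and 1 lower (6.87%). Groups did not overlap for 29 genes that were higher (33.9% of all tested genes) and 7 that were lower (31.8%). In bulk RNA, fewer cells with a transcript and less of it per cell cannot be told apart.

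ZJDC was compared with the same PBSDC libraries, so the comparisons share their controls. Against PBSDC, 27 of the 45 genes rose and 5 fell in ZJDC, where 54.7% of all tested genes passed, 27.6% higher and 27.1% lower. The median log2 fold change was 0.36 over the 45 genes and 0.01 over all tested genes, and 3 genes were over 2-fold higher (9.18% of all tested genes) and 1 lower (3.89%). Groups did not overlap for 30 genes that were higher (36.2%) and 8 that were lower (36.0%). Directly compared with ZJDC, OMVSSDC differed in 1 gene, Ctsh, which was higher, where 1.95% of all tested genes passed (0.856% higher and 1.1% lower). These groups did not overlap for 11 genes that were higher in OMVSSDC (11.7% of all tested genes) and 1 that was lower (12.2%). Over 2-fold, 0 passed (0.0778% of all tested genes higher and 0.0519% lower). Together the 46 genes took 1.53% to 1.57% of all counts in PBSDC, 2.16% to 2.18% in ZJDC, and 2.51%, 2.47% and 2.31% in OMVSSDC.

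**Figure D1:**
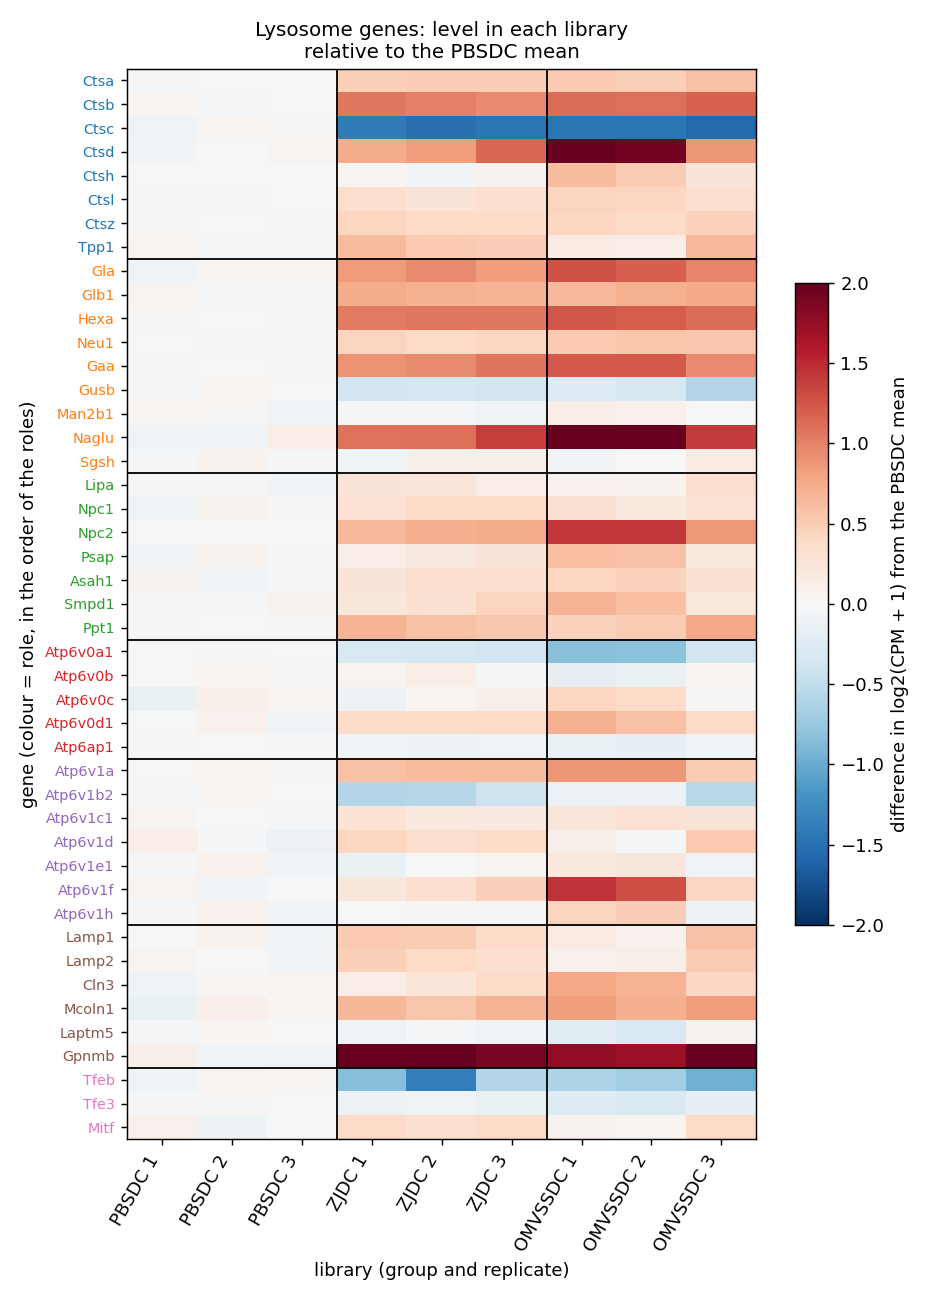
Level of 45 tested genes in each library as the difference in log2(CPM + 1) from the PBSDC mean, with genes in the order of their roles and colours that saturate at -2 and 2. Red (higher) prevails among proteases, glycan and lipid enzymes in ZJDC and OMVSSDC, Ctsc is blue in all 6 of those libraries, and OMVSSDC replicate 3 differs from replicates 1 and 2 in Ctsd, Naglu, Npc2 and Atp6v1f.

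Promoter sequences were searched for an E-box known from lysosomal genes. The E-box TCACGTG, the core of the CLEAR element, was searched on both strands (TCACGTG or CACGTGA) in RefSeq promoters of the GRCm38.p6 build, each from 250 bases before to 50 after the start of transcription. Of 38 genes with an entry, 13 held it (34.2%), against 1237 of 32851 promoters in the table (3.77%) and 1160 of 27025 genes (4.29%). The element is known from lysosomal genes, and these genes were chosen for lysosomal roles. A higher share therefore follows from the choice of genes and is no result of these libraries. The longer palindrome TCACGTGA, which overlaps the shorter motif, occurred in 7 of the 38 genes, against 0.974% of all promoters. The 47-base windows below, 5′ to 3′ on the strand of the gene with the motif in capitals, are shown for 10 of these genes because their transcripts differ in how they moved. None of the lipid genes with an entry (Lipa, Npc2, Ppt1, Psap and Smpd1) held the motif, so none is shown.
Ctsd: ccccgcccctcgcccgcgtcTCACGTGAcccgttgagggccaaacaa
Ctsa: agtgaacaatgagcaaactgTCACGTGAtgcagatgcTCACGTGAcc
Naglu: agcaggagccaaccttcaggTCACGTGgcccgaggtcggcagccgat
Gla: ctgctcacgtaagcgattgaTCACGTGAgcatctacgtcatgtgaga
Mcoln1: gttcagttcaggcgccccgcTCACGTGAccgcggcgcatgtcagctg
Cln3: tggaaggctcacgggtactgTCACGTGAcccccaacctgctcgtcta
Atp6v1a: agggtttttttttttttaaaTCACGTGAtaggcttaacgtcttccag
Atp6v0d1: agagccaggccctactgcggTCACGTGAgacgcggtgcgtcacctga
Atp6v0b: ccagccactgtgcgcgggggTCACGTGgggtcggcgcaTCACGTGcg
Sgsh: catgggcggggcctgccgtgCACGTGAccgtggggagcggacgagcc
The Ctsd window lies at chr7:142387900-142387946, minus strand, and the Ctsa window, with the palindrome 2 times, at chr2:164833740-164833786, plus strand. The Naglu window lies at chr11:101070000-101070046, plus strand, and the Gla window at chrX:134601207-134601253, minus strand. Those of Mcoln1 and Cln3 lie at chr8:3500453-3500499, plus strand, and at chr7:126583332-126583378, minus strand. The pump windows lie at chr16:44139365-44139411, minus strand (Atp6v1a), chr8:105566042-105566088, minus strand (Atp6v0d1) and chr4:117887340-117887386, minus strand (Atp6v0b), and the Sgsh window at chr11:119355513-119355559, minus strand. In OMVSSDC against PBSDC, 11 of the 13 genes with the motif rose and 0 fell at adjusted p under 0.05 (edgeR), with a median log2 fold change of 0.71. The exceptions were Sgsh and Atp6v0b, and the call of Lamp1 was lost in several settings (below). Of the 25 genes with an entry and no motif, 11 rose and 5 fell, with a median of 0.25. These 25 include the transcription factor genes Tfeb, Tfe3 and Mitf, and Tfeb and Tfe3 were among those that fell. Without OMVSSDC replicate 3, 11 with the motif rose and 1 fell (Atp6v0b) and 15 without it rose and 7 fell. In that fit 39% of all tested genes rose and 36% fell. With that library alone the median log2 fold change was 0.58 with the motif and 0.32 without it. Shares of all genes by motif were taken only for the fit to all 9 libraries. In ZJDC against PBSDC 10 rose and 0 fell with the motif, and 13 rose and 4 fell without it. Over all tested genes with an entry, 34.3% of those with the motif and 33.2% of those without rose in OMVSSDC, and 32.4% and 30.3% fell. In ZJDC 25.4% of those with the motif and 27.5% of those without rose, and 28.7% and 27.4% fell. A match of letters is a description and no evidence of binding. Hexa and Npc2 (below) rose without this motif in the window, and sequence outside the window was not searched. The part of the motif in these changes was not tested.

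Most protease transcripts rose against PBSDC, and Ctsc fell. In OMVSSDC 7 of 8 rose and 1 fell (median log2 fold change 0.45), and in ZJDC 6 rose and 1 fell (0.44). For this and each class below, 33.4% of all tested genes rose and 30.2% fell in OMVSSDC. In ZJDC these shares were 27.6% and 27.1%. Ctsd, an aspartic protease that cleaves endocytosed proteins, was at 338, 352 and 363 CPM in PBSDC, 589, 629 and 784 in ZJDC and 1384, 1336 and 651 in OMVSSDC. Every library of ZJDC and OMVSSDC lay above PBSDC, and OMVSSDC replicate 3 lay with ZJDC, below replicates 1 and 2. Its log2 fold change was 1.68 (SE 0.24, adjusted p = 0.000164) in OMVSSDC and 0.93 (SE 0.24, adjusted p = 0.00751) in ZJDC. Without OMVSSDC replicate 3 it was 1.95, and with replicate 3 as the only library of its group 0.88.

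Ctsb, a cysteine protease, was at 2343, 2219 and 2248 CPM in PBSDC, 4701, 4541 and 4348 in ZJDC and 4947, 4887 and 5123 in OMVSSDC. Here the 3 OMVSSDC libraries lay close together, above ZJDC, and both groups lay far above PBSDC. Ctsb rose by 1.14 (SE 0.05, adjusted p = 1.08e-07) in OMVSSDC and 0.997 (SE 0.05, adjusted p = 4.12e-07) in ZJDC on the log2 scale. Ctsc, which encodes the dipeptidyl peptidase that activates serine proteases of immune cell granules, went the other way, at 658, 709.6 and 702 CPM in PBSDC, 257, 243 and 251 in ZJDC and 253, 253 and 235 in OMVSSDC. Its levels in ZJDC and OMVSSDC overlapped each other and lay below all of PBSDC, with log2 fold changes of -1.48 (SE 0.06, adjusted p = 5.67e-08) in OMVSSDC and -1.46 (SE 0.06, adjusted p = 9.78e-08) in ZJDC.

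Ctsa, a carboxypeptidase that also protects β-galactosidase and sialidase in a complex, was at 1451, 1482 and 1469 CPM in PBSDC, 2047, 2065 and 2063 in ZJDC and 2117, 2042 and 2201 in OMVSSDC. It rose by 0.53 (SE 0.05, adjusted p = 1.05e-05) in OMVSSDC and 0.49 (SE 0.05, adjusted p = 2.74e-05) in ZJDC on the log2 scale, with OMVSSDC and ZJDC libraries overlapping. Ctsz and Ctsl, a carboxypeptidase and an endopeptidase of the papain family, rose by 0.42 and 0.41 in OMVSSDC and by 0.40 and 0.31 in ZJDC. Tpp1, a tripeptidyl peptidase, was at 249.7, 236 and 232 CPM in PBSDC, 370.4, 342 and 336 in ZJDC and 269, 262 and 375 in OMVSSDC, so that OMVSSDC replicates 1 and 2 lay nearer PBSDC and replicate 3 just above ZJDC. It rose by 0.55 (SE 0.12, adjusted p = 0.00378) in ZJDC and 0.34 (SE 0.12, adjusted p = 0.0355) in OMVSSDC. The latter call was lost when PBSDC replicate 1, 2 or 3 or ZJDC replicate 2 or 3 was left out (adjusted p = 0.0544 to 0.105), with RLE scaling (0.0559), with DESeq2 (0.0546), with a replicate block (0.0610) and with only the 2 groups compared (0.0908). It was 0.15 without OMVSSDC replicate 3 and 0.64 with that library alone.

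Ctsh, an aminopeptidase of the papain family, was the only 1 of the 45 genes that passed between OMVSSDC and ZJDC in the edgeR fit to all 9 libraries. It was at 26.5, 26.2 and 26.5 CPM in PBSDC, 27.1, 25.3 and 27.8 in ZJDC and 40.9, 38.1 and 31.8 in OMVSSDC. All 3 OMVSSDC libraries lay above the other 6, which overlapped. OMVSSDC exceeded ZJDC by 0.47 (SE 0.10, adjusted p = 0.0483) on the log2 scale and 0.49 (SE 0.10, adjusted p = 0.00167) against PBSDC, while ZJDC against PBSDC gave 0.02 (SE 0.10, adjusted p = 0.888). The call against ZJDC was lost when any 1 library other than OMVSSDC replicate 3 was left out (adjusted p = 0.0959 to 0.203 over 8 left-out libraries). Without OMVSSDC replicate 3 the value was 0.56 (adjusted p = 1.23e-06), and with that library alone 0.24 (adjusted p = 0.293). Against PBSDC the rise was 0.26 with replicate 3 alone.

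**Figure D2:**
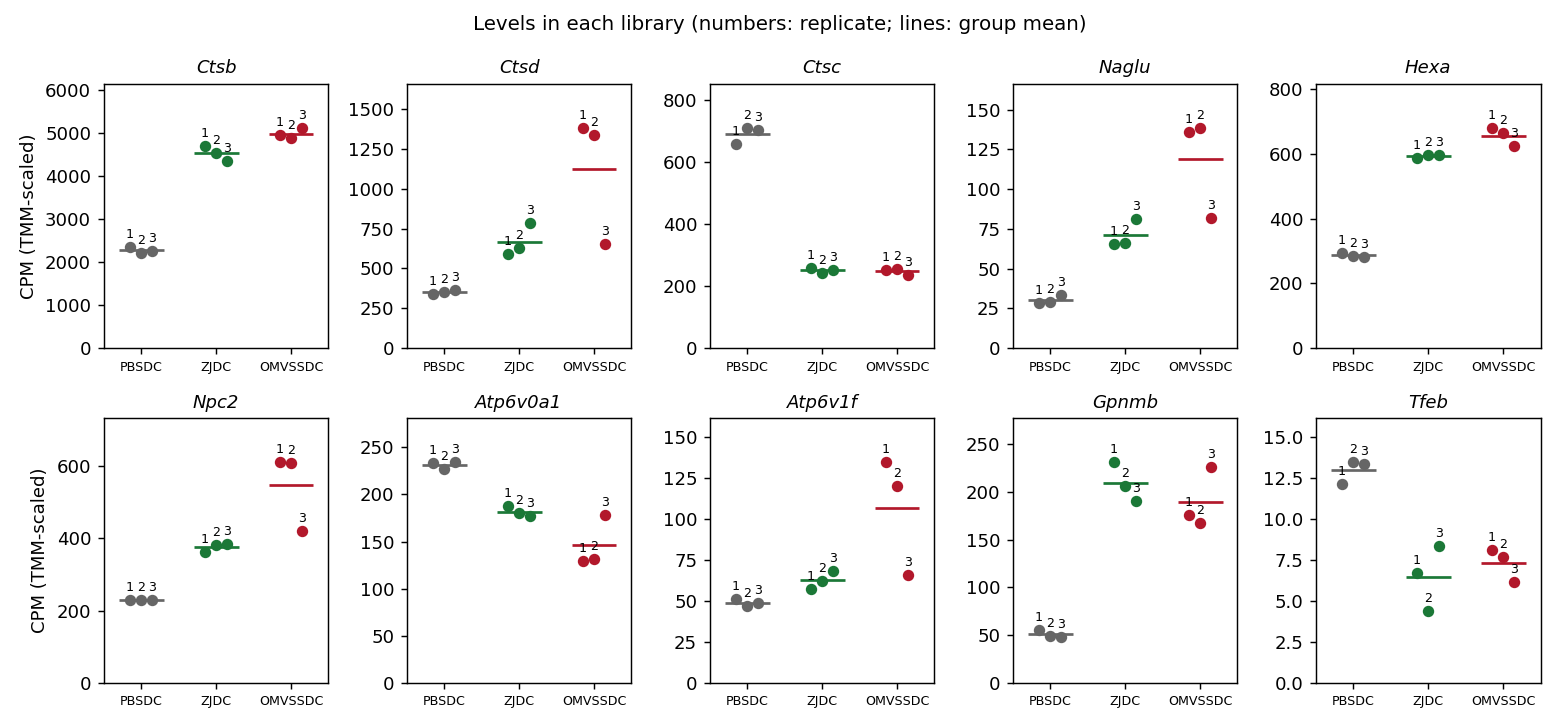
CPM of 10 genes in each library, as points numbered by replicate with lines at the group means, on axes that start at 0. Ctsb, Ctsc and Hexa lie close together within each group, whereas OMVSSDC replicate 3 lies far from replicates 1 and 2 in Ctsd, Naglu, Npc2 and Atp6v1f.

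Glycan-degrading enzymes had the largest median of the 6 classes in both comparisons with PBSDC. In OMVSSDC 6 of 9 rose and 1 fell (median log2 fold change 0.71), and in ZJDC 6 rose and 1 fell (0.72). Naglu, which removes N-acetylglucosamine from heparan sulfate, was at 28.5, 29.3 and 33.6 CPM in PBSDC, 65.5, 66.3 and 81.1 in ZJDC and 136, 139 and 81.6 in OMVSSDC. The groups did not overlap, but OMVSSDC replicate 3 lay just above the highest ZJDC library. Naglu rose by 1.96 (SE 0.19, adjusted p = 1.05e-05) in OMVSSDC and 1.22 (SE 0.19, adjusted p = 0.000355) in ZJDC. It was 2.18 without OMVSSDC replicate 3 and 1.42 with that library alone.

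Hexa, the alpha subunit of the β-hexosaminidase that degrades GM2 ganglioside, was at 293, 285 and 282 CPM in PBSDC, 587, 597 and 596 in ZJDC and 681, 663 and 625 in OMVSSDC. It rose by 1.19 (SE 0.06, adjusted p = 9.98e-08) in OMVSSDC and 1.05 (SE 0.06, adjusted p = 3.92e-07) in ZJDC, and the 3 groups did not overlap. Gla, the α-galactosidase that cleaves globotriaosylceramide, was at 46.5, 49.9 and 49.99 CPM in PBSDC, 89.0, 94.4 and 88.0 in ZJDC and 119, 113 and 96.7 in OMVSSDC. It rose by 1.17 (SE 0.08, adjusted p = 1.39e-06) in OMVSSDC and 0.89 (SE 0.08, adjusted p = 1.37e-05) in ZJDC, and its groups did not overlap either. Gaa, which degrades glycogen, was at 118, 121 and 122 CPM in PBSDC, 224, 233 and 254 in ZJDC and 284, 283 and 232 in OMVSSDC. The rises were 1.15 (SE 0.09, adjusted p = 2.17e-06) in OMVSSDC and 0.98 (SE 0.09, adjusted p = 9.56e-06) in ZJDC, and OMVSSDC replicate 3 lay within the range of ZJDC. Glb1 (β-galactosidase) and Neu1 (sialidase), the partners of Ctsa in its complex, rose by 0.71 and 0.54 in OMVSSDC and by 0.72 and 0.42 in ZJDC.

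Gusb, a β-glucuronidase often used as a reference gene in PCR, was lower. It was at 436, 463 and 448 CPM in PBSDC, 344, 357 and 349.7 in ZJDC and 376, 361 and 297 in OMVSSDC, with every ZJDC and OMVSSDC library below PBSDC. It fell in OMVSSDC, with -0.38 (SE 0.08, adjusted p = 0.00277), and in ZJDC, with -0.36 (SE 0.08, adjusted p = 0.00479). The OMVSSDC value was -0.60 with replicate 3 alone and -0.25 when libraries were scaled by their totals. Man2b1, an α-mannosidase, and Sgsh, a sulfamidase of heparan sulfate, did not pass, with 0.07 and 0.03 in OMVSSDC and -0.05 and 0.06 in ZJDC. Man2b1 passed when OMVSSDC replicate 3 was left out (0.11, adjusted p = 0.0395).

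Lipid enzymes and lipid transfer proteins rose or did not pass, and none fell. In OMVSSDC 6 of 7 rose and 0 fell (median log2 fold change 0.47), and in ZJDC 6 rose and 0 fell (0.33). Npc2, a soluble protein that hands cholesterol to the membrane protein NPC1, was at 229.8, 229 and 229 CPM in PBSDC, 361, 381 and 383 in ZJDC and 610.2, 609 and 421 in OMVSSDC. The groups did not overlap, and OMVSSDC replicate 3 lay nearer ZJDC than its own replicates. Npc2 rose by 1.25 (SE 0.12, adjusted p = 1.25e-05) in OMVSSDC and 0.71 (SE 0.12, adjusted p = 0.000772) in ZJDC. Without OMVSSDC replicate 3 the value in OMVSSDC was 1.41, and with that library alone 0.87. Npc1 rose by 0.27 in OMVSSDC and 0.36 in ZJDC.

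Ppt1, which removes palmitate from proteins, was at 327, 321 and 317 CPM in PBSDC, 519, 486 and 468 in ZJDC and 442, 456 and 544 in OMVSSDC. It rose by 0.58 (SE 0.08, adjusted p = 0.000167) in OMVSSDC and 0.61 (SE 0.08, adjusted p = 0.000161) in ZJDC. Psap, the precursor of the saposins that present sphingolipids to hydrolases, was at 1364, 1486 and 1401 CPM in PBSDC, 1552, 1606 and 1689.9 in ZJDC and 2138, 2122 and 1625 in OMVSSDC. OMVSSDC replicates 1 and 2 stood above all other libraries, and replicate 3 lay within the range of ZJDC. The log2 fold change was 0.47 (SE 0.10, adjusted p = 0.00209) in OMVSSDC, 0.19 with replicate 3 alone, and 0.19 (SE 0.10, adjusted p = 0.130) in ZJDC. That ZJDC value passed when OMVSSDC replicate 3 was left out of the fit (adjusted p = 5.12e-05).

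Smpd1, the acid sphingomyelinase, was at 31.0, 31.1 and 33.4 CPM in PBSDC, 37.4, 39.4 and 43.5 in ZJDC and 51.3, 48.8 and 37.0 in OMVSSDC. Replicate 3 of OMVSSDC lay just below ZJDC, and all libraries of both groups lay above PBSDC. It rose by 0.52 (SE 0.12, adjusted p = 0.00352) in OMVSSDC, which became 0.21 (adjusted p = 0.0901) with replicate 3 alone. In ZJDC it was 0.33 (SE 0.12, adjusted p = 0.0381), which did not pass when PBSDC replicate 1, 2 or 3 or ZJDC replicate 2 or 3 was left out (adjusted p = 0.0621 to 0.138). Asah1, the acid ceramidase, rose by 0.40 in OMVSSDC and 0.31 in ZJDC. Lipa, which hydrolyses cholesteryl esters, had 0.17 (SE 0.08, adjusted p = 0.0812) in OMVSSDC and 0.21 (SE 0.08, adjusted p = 0.0418) in ZJDC. The latter call was lost when any 1 PBSDC or ZJDC library was left out (adjusted p = 0.0517 to 0.137). The OMVSSDC value was 0.08 without replicate 3 and 0.32 with it alone.

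Proton pump genes did not move together. Of 12 tested, 4 rose and 1 fell in OMVSSDC (median log2 fold change 0.24), and 4 rose and 2 fell in ZJDC (0.03). Of all tested genes 33.4% rose and 30.2% fell in OMVSSDC, and 27.6% and 27.1% in ZJDC. The share of pump genes that rose in OMVSSDC was thus close to the background. The OMVSSDC counts moved with scaling, to 7 higher and 1 lower with library totals, and to 4 higher and 3 lower with RLE scaling and with DESeq2. All genes moved too. Of 11568 genes 4672 were higher and 2819 lower with library totals, and 3670 and 3651 with RLE scaling. With DESeq2 3702 were higher and 3710 lower of 17043 genes with a count. In the membrane sector and its accessory protein, 1 of 5 rose and 1 fell in each comparison, with medians of -0.08 and 0.01. Atp6v0a1, an isoform of the large subunit through which protons pass, was at 233, 227 and 234 CPM in PBSDC, 187, 181 and 177 in ZJDC and 129.8, 131 and 178 in OMVSSDC. All ZJDC and OMVSSDC libraries lay below PBSDC, and OMVSSDC replicate 3 lay within the ZJDC range. Its log2 fold change was -0.66 (SE 0.11, adjusted p = 0.000443) in OMVSSDC, -0.83 without replicate 3 and -0.39 with replicate 3 alone. In ZJDC it was -0.35 (SE 0.11, adjusted p = 0.0208), a call lost when PBSDC replicate 1 or 3 or ZJDC replicate 2 or 3 was left out (adjusted p = 0.0591 to 0.0659). Of the other isoforms of this subunit, Atp6v0a2 also fell (-0.51 in OMVSSDC and -0.45 in ZJDC). Tcirg1, the a3 isoform known from osteoclasts and immune cells, rose by 0.90 (SE 0.09, adjusted p = 9.58e-06) and 0.68 (SE 0.09, adjusted p = 9.47e-05), from 327 ± 9.80 CPM in PBSDC to 522 ± 29.1 CPM in ZJDC and 609.8 ± 68.7 CPM in OMVSSDC (means and SD, n = 3). Atp6v0a4 had too few counts to be tested.

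Atp6v0d1, of the stalk that joins both sectors, was at 111, 116 and 103 CPM in PBSDC, 142, 142 and 144 in ZJDC and 181, 166 and 145 in OMVSSDC. It rose by 0.57 (SE 0.08, adjusted p = 0.000200) in OMVSSDC and 0.37 (SE 0.08, adjusted p = 0.00381) in ZJDC, and the groups did not overlap. Its isoform Atp6v0d2, known from osteoclasts, was not detected in ZJDC or OMVSSDC and reached only 0.0686 and 0.0730 CPM in PBSDC replicates 2 and 3. A count of 0 allows up to 3 counts, which is 0.163 to 0.235 CPM depending on the library (counting error only), so no fold is given. Atp6v0c, the proteolipid of the rotating ring, was at 97.4, 115 and 111 CPM in PBSDC, 99.7, 109.9 and 115 in ZJDC and 146, 141 and 105 in OMVSSDC. Replicates 1 and 2 of OMVSSDC lay above all other libraries and replicate 3 did not, and the log2 fold change of 0.28 (SE 0.12, adjusted p = 0.0707) did not pass. Without replicate 3 it was 0.41 (adjusted p = 3.83e-06) and with replicate 3 alone -0.04. The accessory protein gene Atp6ap1 was at 291, 289 and 282 CPM in PBSDC, 277, 267 and 273 in ZJDC and 258, 257 and 271 in OMVSSDC. Both groups lay below PBSDC. The OMVSSDC value, -0.13 (SE 0.05, adjusted p = 0.0569), did not pass, but did so without OMVSSDC replicate 3 (0.00176) and with DESeq2 (0.00711). Atp6v0b, another proteolipid of the ring, had -0.08 in OMVSSDC and 0.06 in ZJDC, neither past the threshold, and -0.15 without OMVSSDC replicate 3 (adjusted p = 0.0355).

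In the cytosolic sector 3 of 7 rose and 0 fell in OMVSSDC (median 0.26), and 3 rose and 1 fell in ZJDC (0.22). Atp6v1f, a small subunit of the rotor, was at 50.9, 46.6 and 48.7 CPM in PBSDC, 57.4, 62.0 and 68.5 in ZJDC and 134, 120.0 and 65.5 in OMVSSDC. OMVSSDC replicates 1 and 2 stood far above the rest, and replicate 3 lay within the ZJDC range. Atp6v1f rose by 1.13 (SE 0.21, adjusted p = 0.00104) in OMVSSDC, 1.38 without replicate 3 and 0.42 with replicate 3 alone. In ZJDC it was 0.36 (SE 0.21, adjusted p = 0.177), and the difference between OMVSSDC and ZJDC was 0.77 (SE 0.21, adjusted p = 0.0728). The ZJDC value passed when OMVSSDC replicate 3 was left out of the fit (adjusted p = 2.34e-05).

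Atp6v1a, the subunit that hydrolyses ATP, was at 174, 177 and 167 CPM in PBSDC, 259, 267 and 268 in ZJDC and 319.7, 319 and 245 in OMVSSDC. It rose by 0.77 (SE 0.10, adjusted p = 6.64e-05) in OMVSSDC, 0.50 with replicate 3 alone, and by 0.61 (SE 0.10, adjusted p = 0.000410) in ZJDC. Its partner in the catalytic ring, Atp6v1b2, was at 279, 292 and 285 CPM in PBSDC, 190.3, 191 and 215 in ZJDC and 262, 263 and 194 in OMVSSDC. Levels in ZJDC and OMVSSDC overlapped, since OMVSSDC replicate 3 lay within the ZJDC range, and both groups lay below PBSDC. In ZJDC it fell by 0.52 on the log2 scale (SE 0.11, adjusted p = 0.00267). In OMVSSDC the value was -0.25 (SE 0.11, adjusted p = 0.0686), and it passed when 1 OMVSSDC library was left out, at -0.33, -0.33 and -0.12 without replicates 1, 2 and 3. With replicate 3 alone it was -0.56.

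Atp6v1h, a regulatory subunit, was at 93.9, 103 and 92.5 CPM in PBSDC, 95.7, 98.0 and 97.7 in ZJDC and 132, 136 and 90.1 in OMVSSDC. OMVSSDC replicates 1 and 2 lay above all other libraries and replicate 3 below them. The log2 fold change of 0.31 (SE 0.13, adjusted p = 0.0640) did not pass, but did so without replicate 3 (0.47, adjusted p = 6.12e-09), and it was -0.10 with replicate 3 alone. Atp6v1c1, a subunit of the stalk that holds the sectors together, was at 153, 147 and 144 CPM in PBSDC, 179.9, 169 and 168 in ZJDC and 175, 182 and 177 in OMVSSDC. It rose by 0.26 (SE 0.06, adjusted p = 0.00285) in OMVSSDC and 0.22 (SE 0.06, adjusted p = 0.0101) in ZJDC, the latter lost without ZJDC replicate 1 (adjusted p = 0.0517). Atp6v1d, of the rotor, rose in ZJDC by 0.39 (SE 0.13, adjusted p = 0.0277), and OMVSSDC gave 0.22 (SE 0.13, adjusted p = 0.177). That ZJDC call was lost when PBSDC replicate 2 or 3 or any 1 ZJDC replicate was left out (adjusted p = 0.0580 to 0.104). The OMVSSDC value was 0.03 without replicate 3 and 0.52 with it alone. Atp6v1e1, of the outer stalk, had 0.13 in OMVSSDC and -0.02 in ZJDC, neither past the threshold, and 0.22 without OMVSSDC replicate 3 (adjusted p = 0.00130).

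**Figure D3:**
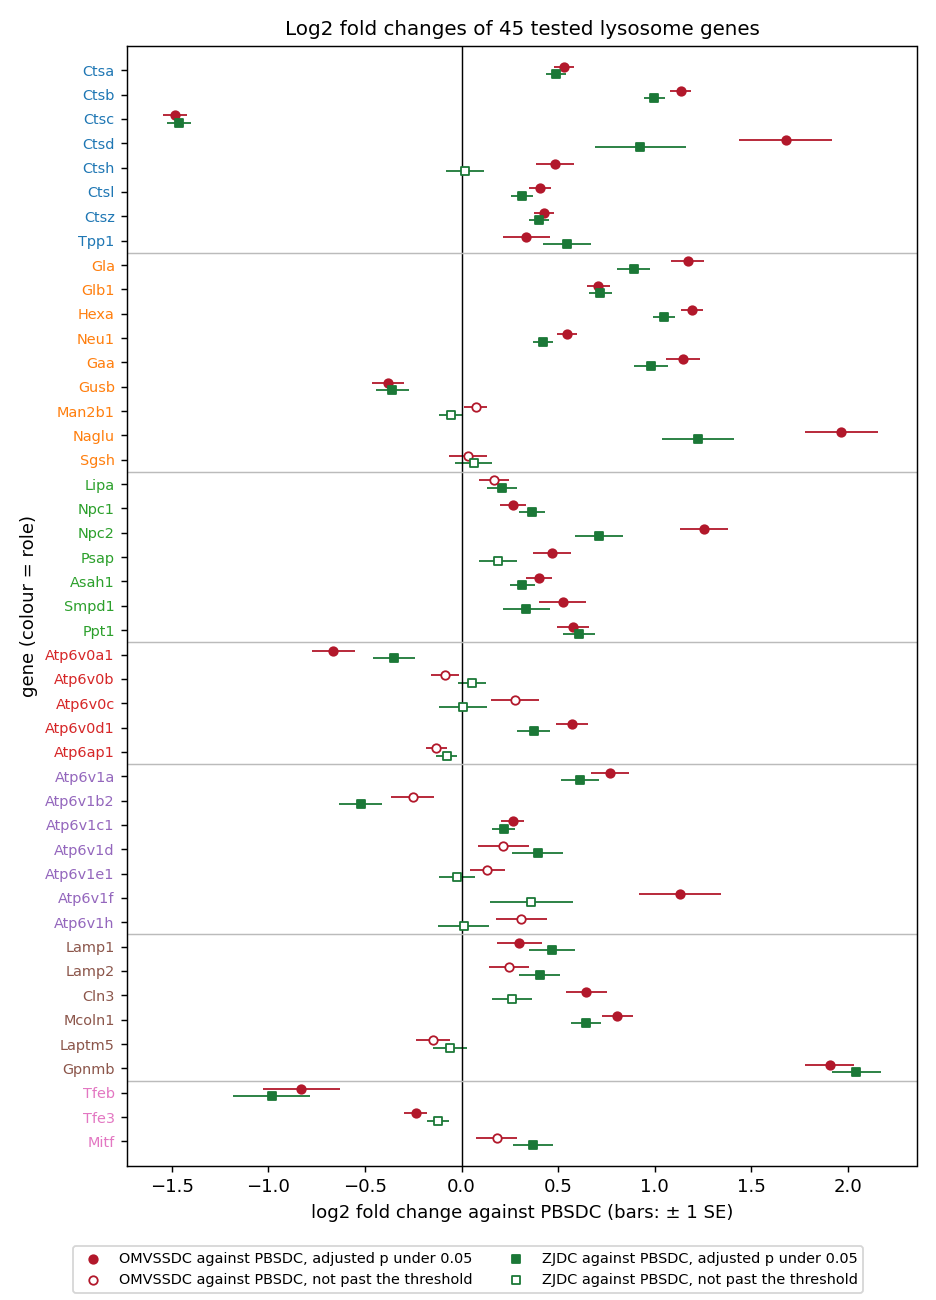
Log2 fold change against PBSDC of 45 genes in OMVSSDC (circles) and ZJDC (squares) with bars of 1 SE, filled where the adjusted p was under 0.05 and grouped by role. Glycan and lipid enzymes lie mostly to the right of 0, pump genes lie on both sides, and Ctsc and Tfeb lie left of 0.

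Set side by side, the classes differed in counts and medians, which are descriptions. In OMVSSDC against PBSDC the cathepsins alone had 6 higher and 1 lower of 7 (median log2 fold change 0.49), glycan and lipid enzymes together 12 higher and 1 lower of 16 (0.53), and the proton pump 4 higher and 1 lower of 12 (0.24). In ZJDC against PBSDC the counts were 5 and 1 (0.40), 12 and 1 (0.39), and 4 and 2 (0.03). Of all tested genes 33.4% were higher and 30.2% lower in OMVSSDC, and 27.6% and 27.1% in ZJDC. The share of counts taken by the 8 proteases was 0.718% to 0.725% in PBSDC, 1.11% to 1.12% in ZJDC and 1.21% to 1.32% in OMVSSDC. That of the V0 genes and the accessory protein was 0.0763% to 0.0782% in PBSDC, 0.0767% to 0.0787% in ZJDC and 0.0772% to 0.0824% in OMVSSDC. The V1 genes took 0.0844% to 0.0881% in PBSDC and 0.0931% to 0.1000% in ZJDC, and in OMVSSDC 0.127%, 0.127% and 0.0945%. With replicate 3 as the only OMVSSDC library the pump median was -0.01.

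Among membrane proteins 4 of 6 rose and 0 fell in each comparison with PBSDC (medians 0.47 in OMVSSDC and 0.44 in ZJDC). Gpnmb, a glycoprotein of lysosomes and melanosomes in macrophages and dendritic cells, was at 55.2, 48.8 and 48.0 CPM in PBSDC, 231, 206 and 190.4 in ZJDC and 176, 168 and 226 in OMVSSDC. Gpnmb rose by 1.90 (SE 0.12, adjusted p = 7.62e-07) in OMVSSDC and 2.04 (SE 0.13, adjusted p = 8.10e-07) in ZJDC, the highest of the 45 genes in ZJDC. Mcoln1, the calcium channel TRPML1, was at 51.2, 60.4 and 57.5 CPM in PBSDC, 89.8, 82.6 and 91.9 in ZJDC and 101, 94.2 and 101 in OMVSSDC. It rose by 0.81 (SE 0.08, adjusted p = 1.06e-05) and 0.65 (SE 0.08, adjusted p = 7.00e-05), with all 3 OMVSSDC libraries above ZJDC and all of ZJDC above PBSDC. Cln3, a membrane protein mutated in a juvenile form of neuronal ceroid lipofuscinosis, was at 45.4, 49.6 and 50.4 CPM in PBSDC, 52.9, 57.5 and 63.6 in ZJDC and 83.1, 79.2 and 65.0 in OMVSSDC. It rose by 0.65 (SE 0.11, adjusted p = 0.000385) in OMVSSDC, 0.42 with replicate 3 alone, and ZJDC gave 0.26 (SE 0.11, adjusted p = 0.0583). The ZJDC value passed without OMVSSDC replicate 3 (adjusted p = 0.000863) or ZJDC replicate 1 (0.0453).

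Lamp1, a main glycoprotein of the lysosomal membrane, was at 620.2, 646 and 579 CPM in PBSDC, 880.1, 870.2 and 803 in ZJDC and 689, 655 and 926 in OMVSSDC. OMVSSDC replicate 3 stood above every other library, and replicates 1 and 2 lay just above PBSDC. It rose by 0.30 (SE 0.12, adjusted p = 0.0468) in OMVSSDC, 0.13 without replicate 3 and 0.58 with it alone, and 0.47 (SE 0.12, adjusted p = 0.00695) in ZJDC. The OMVSSDC call was lost when any 1 PBSDC or ZJDC library was left out (adjusted p = 0.0658 to 0.1502), with RLE scaling (0.0749), DESeq2 (0.0820), limma-voom (0.0556), a replicate block (0.0922) and only the 2 groups compared (0.113). Lamp2 had the same arrangement of libraries, with 0.25 (SE 0.10, adjusted p = 0.0599) in OMVSSDC, and 0.40 (SE 0.10, adjusted p = 0.00786) in ZJDC. The OMVSSDC value passed when any 1 OMVSSDC library was left out. It was 0.10 without replicate 3 (adjusted p = 0.0390) and 0.50 with replicate 3 alone. Laptm5, a membrane protein of blood cells that promotes degradation of antigen receptors, had -0.15 and -0.06, neither past the threshold. Laptm5 fell when OMVSSDC replicate 3 was left out (-0.27, adjusted p = 8.40e-07).

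Of the transcription factor genes 0 of 3 rose and 2 fell in OMVSSDC. With scaling by library totals 1 rose (Mitf) and 1 fell (Tfeb), where 4672 of 11568 tested genes were higher and 2819 lower. Tfeb was at 12.1, 13.4 and 13.4 CPM in PBSDC, 6.71, 4.38 and 8.32 in ZJDC and 8.08, 7.65 and 6.15 in OMVSSDC. The 6 libraries of ZJDC and OMVSSDC lay below PBSDC and overlapped each other. Tfeb fell in both, with -0.83 (SE 0.20, adjusted p = 0.00430) in OMVSSDC and -0.98 (SE 0.20, adjusted p = 0.00203) in ZJDC. Tfe3, a close relative, was at 96.3, 100.2 and 98.7 CPM in PBSDC, 90.2, 92.5 and 88.6 in ZJDC and 82.5, 80.6 and 87.3 in OMVSSDC. It fell slightly in OMVSSDC by 0.24 on the log2 scale (SE 0.06, adjusted p = 0.00514). It did not pass there when libraries were scaled by their totals (-0.11, adjusted p = 0.0885). In ZJDC it had -0.12 (SE 0.06, adjusted p = 0.102), which passed without OMVSSDC replicate 3 (0.0265). Mitf was at 29.1, 25.7 and 27.8 CPM in PBSDC, 36.1, 34.7 and 36.0 in ZJDC and 29.1, 28.3 and 36.5 in OMVSSDC. It rose in ZJDC by 0.37 (SE 0.11, adjusted p = 0.0133), which was lost when PBSDC replicate 2 was left out (adjusted p = 0.0622). In OMVSSDC it had 0.18 (SE 0.11, adjusted p = 0.160), and 0.05 without replicate 3. With replicate 3 alone it was 0.40, and it passed with scaling by library totals (0.31, adjusted p = 0.0172). These are transcript levels, and the location and activity of the proteins were not measured.

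OMVSSDC and ZJDC could hardly be told apart by the fit to all 9 libraries, and that changed with OMVSSDC replicate 3. Of the 45 genes 1 passed (Ctsh), against 1.95% of all tested genes (99 higher and 127 lower, or 115 and 91 with scaling by library totals). Larger differences in 4 genes did not pass. They were 0.77 (SE 0.21, adjusted p = 0.0728) for Atp6v1f, 0.75 (SE 0.24, adjusted p = 0.0865) for Ctsd, 0.74 (SE 0.18, adjusted p = 0.0587) for Naglu and 0.54 (SE 0.12, adjusted p = 0.0545) for Npc2. Without OMVSSDC replicate 3, 34 of the 45 differed from ZJDC, 22 higher and 12 lower, where 55.6% of all tested genes passed (27.6% higher and 28% lower). With replicate 3 as the only OMVSSDC library 1 passed, Gusb, which was lower, where 2.97% of all tested genes passed (1.18% higher and 1.79% lower). A fit with 1 library in a group takes its spread from the other groups and describes that library.

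OMVSSDC replicate 3 lay nearer to the ZJDC mean than to the mean of OMVSSDC replicates 1 and 2 in 38 of 45 genes, which also held for 75.0% of all tested genes, and within the ZJDC range in 16. Replicates 1 and 2 both exceeded replicate 3 in 23 genes and both fell short of it in 19. A share over all tested genes was taken only for nearness to the ZJDC mean. The other counts describe the 45 genes and have no background beside them. Ctsd, Naglu, Npc2, Atp6v1f, Psap and Smpd1 were among the former, and Lamp1, Lamp2, Tpp1, Ppt1, Gpnmb and Atp6v0a1 among the latter. Without replicate 3 the values were 1.02 for Ctsd, 0.95 for Naglu, 0.70 for Npc2 and 1.02 for Atp6v1f against ZJDC. Against PBSDC, 41 of 45 genes passed without replicate 3 (32 higher and 9 lower), where 74.9% of all tested genes passed, 39% higher and 36% lower. With replicate 3 alone 36 passed (30 higher and 6 lower), where 61.9% of all tested genes passed, 30.7% higher and 31.3% lower. By class, 7 proteases rose and 1 fell in either fit. Of the glycan-degrading enzymes 7 rose and 1 fell without replicate 3, and 6 rose and 1 fell with it alone. Of the pump genes 7 rose and 4 fell without it, and 5 rose and 2 fell with it alone. Longer genes tended to be lower in replicates 1 and 2 than in replicate 3, with a Spearman rho of -0.23 across the 45 genes and -0.30 across all tested genes (a description across genes that share these 3 libraries). The part of gene length in the difference was not tested.

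**Figure D4:**
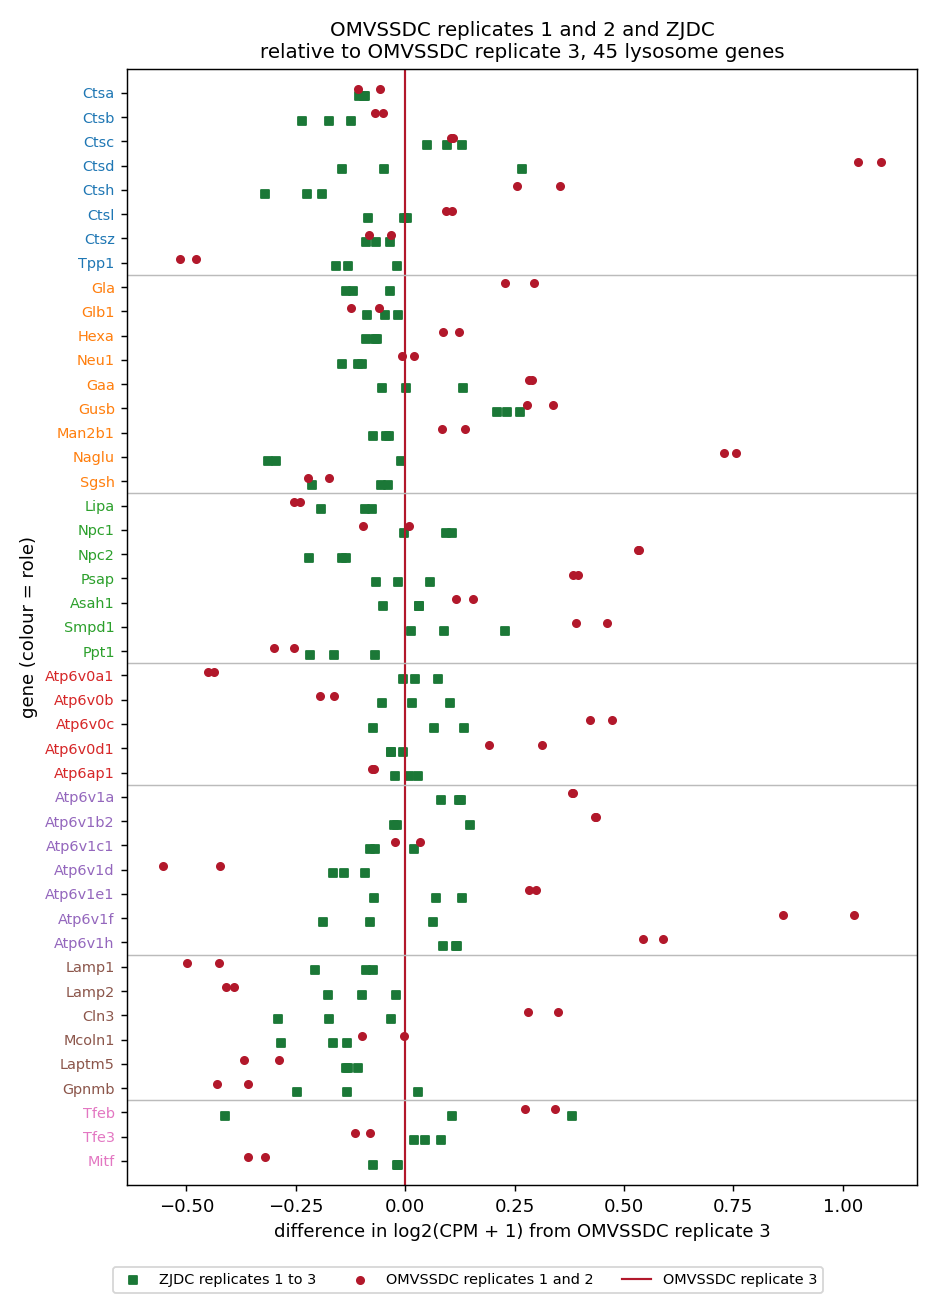
Difference in log2(CPM + 1) from OMVSSDC replicate 3 (line at 0) for OMVSSDC replicates 1 and 2 (circles) and the 3 ZJDC libraries (squares), 45 genes grouped by role. The ZJDC squares lie nearer the line than the circles for most genes, with the circles far to the right in Ctsd, Atp6v1f and Naglu and to the left in Tpp1, Lamp1 and Atp6v1d.

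Levels were compared between genes per length, as the deposited FPKM. In PBSDC, Ctsz led with 1298 ± 26.9 FPKM (SD, n = 3), followed by Psap (494 ± 22.2), Ctsb (359 ± 9.63), Ctsa (298 ± 3.60), Laptm5 (251 ± 7.54) and Lamp1 (219.9 ± 11.9). In OMVSSDC Ctsz remained first with 1903 ± 36.3 FPKM and Ctsb came next with 861 ± 9.48, ahead of Psap with 749.6 ± 134. The SD of Psap reached that of Ctsb, but Psap lay below Ctsb in each OMVSSDC library and was lowest in replicate 3. Pump subunits lay lower, with Atp6ap1 (90.8 ± 1.25) and Atp6v0d1 (58.8 ± 3.52) the highest in PBSDC. At the low end of the tested genes were Mitf (4.25 ± 0.262) and Tfeb (2.19 ± 0.126).

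Other lysosomal genes gave the context. The 8 further lists held 121 genes in the table, of which 98 were tested. In OMVSSDC 50 rose and 18 fell (median log2 fold change 0.33), and in ZJDC 44 rose and 13 fell (0.16). For these and each list below, 33.4% of all tested genes rose and 30.2% fell in OMVSSDC. In ZJDC these shares were 27.6% and 27.1%. Leaving out OMVSSDC replicate 3 gave 62 higher and 21 lower in OMVSSDC, where 39% of all tested genes were higher and 36% lower. The median was 0.36 without that library and 0.18 with it alone. Of 8 further proteases 5 rose and 2 fell in OMVSSDC and 4 rose and 1 fell in ZJDC, with Ctso, Cpq and Scpep1 at 1.49, 1.49 and 1.06 in OMVSSDC. Of 4 cathepsin inhibitors 3 rose and 0 fell in OMVSSDC and 2 and 0 in ZJDC, among them Cstb (cystatin B), with 0.53 in OMVSSDC and 0.52 in ZJDC, and Serpinb6a (0.34 in OMVSSDC). The third was Cst7 (cystatin F), a gene at low level that rose from 1.29 ± 0.190 CPM in PBSDC to 3.84 ± 0.409 CPM in ZJDC and 3.34 ± 1.02 CPM in OMVSSDC (SD, n = 3). Its rise on the log2 scale was 1.37 (SE 0.27, adjusted p = 0.00131) in OMVSSDC and 1.55 (SE 0.26, adjusted p = 0.000684) in ZJDC.

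Of 17 further glycan-degrading enzymes 12 rose and 2 fell in OMVSSDC, and 12 rose and 1 fell in ZJDC. Idua, which cleaves iduronic acid from heparan and dermatan sulfate, rose from 14.6 ± 1.49 CPM in PBSDC to 41.5 ± 2.04 CPM in ZJDC and 48.3 ± 2.48 CPM in OMVSSDC (SD, n = 3). The OMVSSDC rise was 1.73 (SE 0.09, adjusted p = 2.22e-07) on the log2 scale. Ctbs rose by 1.41 in OMVSSDC. Of 11 further lipid genes 7 rose and 2 fell in OMVSSDC and 6 and 2 in ZJDC. Pld3 rose by 1.53 and Plbd2 by 0.67 in OMVSSDC, and Smpdl3b, a membrane phosphodiesterase related to sphingomyelinase, fell by 1.21.

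Of 7 further pump genes 3 rose and 2 fell in OMVSSDC and 2 and 1 in ZJDC, with Atp6v1g1 of the outer stalk at 1.25 (SE 0.19, adjusted p = 0.000202) in OMVSSDC. It was at 66.3, 60.8 and 67.8 CPM in PBSDC, 96.7, 89.9 and 104 in ZJDC and 183, 179 and 102 in OMVSSDC, so that OMVSSDC replicate 3 stood far below replicates 1 and 2. Of 18 further membrane proteins 10 rose and 1 fell in OMVSSDC and 10 and 2 in ZJDC. Mcoln2, a channel related to Mcoln1, rose from 25.8 ± 2.40 CPM in PBSDC to 106 ± 2.93 CPM in ZJDC and 134 ± 19.3 CPM in OMVSSDC (SD, n = 3), a rise of 2.38 (SE 0.11, adjusted p = 1.06e-07) in OMVSSDC on the log2 scale. Laptm4b and Clcn7, the lysosomal chloride-proton exchanger, rose by 1.86 and 1.22. Of 18 genes of the nutrient-sensing complex on the lysosome 9 rose and 4 fell in OMVSSDC and 5 and 3 in ZJDC, with Rraga, Fnip2 and Flcn at 1.004, 0.86 and 0.85 in OMVSSDC. Flcn, which encodes folliculin, a regulator of TFEB and TFE3, was at 23.9, 20.9 and 23.6 CPM in PBSDC, 25.1, 24.0 and 28.2 in ZJDC and 50.2, 44.8 and 28.3 in OMVSSDC, with OMVSSDC replicate 3 again far below replicates 1 and 2. Of 15 genes of sorting to the lysosome 1 rose and 5 fell in OMVSSDC and 3 and 3 in ZJDC. Vps33a and Vps39, of the tethering complex HOPS, moved in opposite directions, with -1.05 and 0.55 in OMVSSDC. Vps26a, of the retromer, had -0.49 in OMVSSDC. It was at 148, 141 and 140.0 CPM in PBSDC, 141, 131 and 131 in ZJDC and 87.2, 89.1 and 129 in OMVSSDC, and OMVSSDC replicate 3 lay far from replicates 1 and 2.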

How the data were processed

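Total RNA was sequenced as 9 Illumina libraries, per the labels' protocols. The submitters' processing notes list fastp 0.22.0 (read filtering), HISAT2 2.1.0 (alignment) and HTSeq 0.9.1 (counting). The authors deposited raw read counts per gene, used here for all tests, and FPKM, used here for levels between genes. In all 127564 nonzero values the deposited FPKM equalled count over gene length and library total, within a relative difference of 1e-6. Genome build and strand setting were not given in the sources used here.

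Counts were fitted in R 4.3.3 with edgeR 4.0.16 (filterByExpr with minimum count 10 and minimum total 15, TMM, robust quasi-likelihood, 9 libraries, group as the only factor, 6 residual degrees of freedom). The 3 contrasts were tested two-sided and adjusted by Benjamini-Hochberg over 11568 genes. Each SE was taken as the fold change (log2) over the square root of its F statistic. The steps were tested on simulated data.

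Groups come from the sample titles. The genes, their classes, the other lists and the tests were chosen with earlier results of these data known, and the promoter search after values were seen. Values in every library are given for up to 4 genes per class with the largest change in OMVSSDC against PBSDC, for both Atp6v0d isoforms, and, chosen after their values were seen, for Ctsh, Tpp1, Gusb and Atp6v1b2. From other lists, up to 3 genes that passed are named by the same measure among those with a mean of at least 5 CPM over all libraries. Cst7, below that level, was added after its values were seen. Promoters matched 38 of 46 genes by symbol. Libraries of equal replicate number did not deviate alike from their group means (correlations -0.39 to 0.09). With 3 libraries a group and OMVSSDC replicate 3 apart, this cannot decide whether they shared a culture or batch.

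Alternatives were RLE scaling, scaling by library totals, no filter, a minimum count of 50, DESeq2 1.42.0, limma-voom (limma 3.58.1), the replicate number as a block, fits to 2 groups, leaving out each library, and OMVSSDC replicate 3 as the only library of its group.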

Additional observations from a re-analysis of the deposited data

How the results depend on the processing

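Against PBSDC, no lysosomal gene that passed changed direction under the alternatives run. The number that passed was 32 in both comparisons, and ranged from 30 to 41 in OMVSSDC and from 28 to 36 in ZJDC. Over all genes 7358 passed in OMVSSDC and 6323 in ZJDC, with ranges of 6545 to 8813 and 5459 to 8242. The number of genes tested varied with the setting. Scaling by library totals moved the median log2 fold change of all genes in OMVSSDC from 0.05 to 0.18. It gave 34 higher and 4 lower lysosomal genes, where 4672 of 11568 tested genes were higher and 2819 lower. With TMM scaling 3866 of all tested genes were higher and 3492 lower.

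OMVSSDC against ZJDC depended most on the setting. Over all genes 226 passed, against 1580 with DESeq2, 355 with OMVSSDC replicate 3 alone, 0 with only the 2 groups compared (edgeR; 2558 at an unadjusted p under 0.05), and 0 to 6539 when a library was left out. The 6539 came without OMVSSDC replicate 3. Among the lysosomal genes 1 passed, against 2 with no filter, 7 with DESeq2, 0 with only the 2 groups compared (edgeR; 9 at an unadjusted p under 0.05), and 0 to 34 when a library was left out. With a replicate block in edgeR, 0 genes passed there (2955 at an unadjusted p under 0.05) and 0 lysosomal genes (9 unadjusted). With that block 30 lysosomal genes passed in each comparison with PBSDC (25 higher and 5 lower). Of all 11568 tested genes 3566 were then higher and 3301 lower in OMVSSDC, and 2957 and 2820 in ZJDC. The labels do not say whether libraries of equal replicate number belong together.

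Signs changed for values that passed in neither fit. With OMVSSDC replicate 3 alone against PBSDC, Man2b1 was at -0.00839, Atp6v0b at 0.0273, Atp6v0c at -0.0421, Atp6v1e1 at -0.0744, Atp6v1h at -0.103 and Laptm5 at 0.0577, and against ZJDC Ctsd was at -0.0449. With scaling by library totals Atp6v0b was at 0.0409 in OMVSSDC, and in ZJDC Man2b1 was at 0.0110, Atp6v1e1 at 0.0423 and Laptm5 at 0.00273. With RLE scaling and with DESeq2, ZJDC gave -0.00568 and -0.00547 for Atp6v0c, and -0.00169 and -0.00141 for Atp6v1h. When a library was left out, Sgsh ranged from -0.0387 to 0.0722 in OMVSSDC, and in ZJDC Ctsh ranged from -0.0140 to 0.0551, Atp6v0c from -0.0615 to 0.0641, Atp6v1e1 from -0.0715 to 0.0332 and Atp6v1h from -0.0192 to 0.0525. The cause of these changes was not tested. Atp6v0d2 had too few counts to be tested at 12784931 to 18388959 counts per library. The comparison of OMVSSDC with ZJDC changed with OMVSSDC replicate 3, and the part of the spread within OMVSSDC was not tested.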
